A study of Mus musculus with 10 samples.

Results

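Genes of mitochondrial protein import and of the outer-membrane porins were followed through a transcription block in 32Dcl3 cells, a mouse myeloblast line that depends on interleukin-3 (IL-3). Members were all genes whose array symbol names a Timm, Tomm, Grpel, Vdac, Mtx, Samm50, Pmpc or Immp gene on probe sets that name 1 gene. There were 32 such genes among 12394, on 61 probe sets, and each gene was represented by the probe set with the highest mean over the 10 arrays. The family was chosen because the signals of Timm17a and Vdac2 were above those in low IL-3 when IL-3 was high, so the members' mean dose differences are given as a description without tests. The decay averaged over both doses and the change of the dose difference with time are other contrasts of the same arrays and were tested.

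In each of 2 independent experiments, IL-3 was washed out of a culture, transcription was stopped with actinomycin D at 10 µg/ml, and the cells were divided. Groups were the 0 h sample, medium with high IL-3 (1 ng/ml) at 2 h and at 4 h, and medium with low IL-3 (0.01 ng/ml) at 2 h and at 4 h. Each of the 5 groups held 2 arrays, 1 from each experiment. The labels place 0 h both before and after actinomycin D, whereas the study counts hours from the addition of cytokine, as is done here.

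Nearly all mitochondrial proteins are made in the cytosol and enter through the Tom complex of the outer membrane. Beta-barrel proteins, among them the Vdac porins that carry metabolites across that membrane, are inserted by the sorting and assembly machinery. Proteins with a cleavable presequence pass the Tim23 complex and are pulled into the matrix by a motor around mitochondrial Hsp70, whereas metabolite carriers are escorted by small Tim chaperones to the Tim22 complex.

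Values were probe set intensities on a linear scale, normalized by the authors. Array medians ran from 48.8 to 70.6, with the highest in the 0 h sample of each experiment. Of 10 myeloblast markers, 7 had a mean intensity of at least 50 at 0 h, among them Mpo, Prtn3, Ctsg and Myb, whereas Elane, Kit and Cd34 did not. All 5 lymphoid markers measured lay below 50, while 4 of 6 mast cell and basophil, 3 of 5 macrophage and 3 of 6 erythroid and megakaryocyte markers reached it. Over the arrays, summed intensities ranged from 6791 to 15301 for the myeloblast markers, 1569 to 3920 for mast cell and basophil, 3114 to 3757 for macrophage and 2294 to 3287 for erythroid and megakaryocyte markers, and their part in the results was not tested. In bulk RNA, fewer cells carrying a transcript and less of it per cell cannot be told apart.

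Most import and porin transcripts declined over the chase, but to very different extents. Averaged over both doses, 18 of the 31 members that passed the filter on mean intensity were lower at 4 h than at 0 h, 5 were higher and 8 were not called (limma, Benjamini-Hochberg adjusted p under 0.05 over all probe sets). Among all 6792 genes tested, 45.0% were lower and 14.5% higher. The median member changed by -0.23 on the log2 scale, beside -0.19 for all genes, and members spanned -3.02 to 0.64. The split depended on scaling. Relative to a common 75th percentile, 11 members were lower and 17 higher, and the median member was at 0.21 beside 0.23 for all genes. Quantile normalization gave 15 and 9, with medians of -0.12 for members and 0.10 for all genes. Centring on the median log2 difference gave 13 and 12, with medians of 0.03 and 0.07. The shares of all genes called under these scalings were not counted. The 4 arrays at 4 h all lay below both 0 h arrays for 16 members, and all above them for 1, Timm22, beside 36.9% and 9.63% of all genes.

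**Figure D1:**
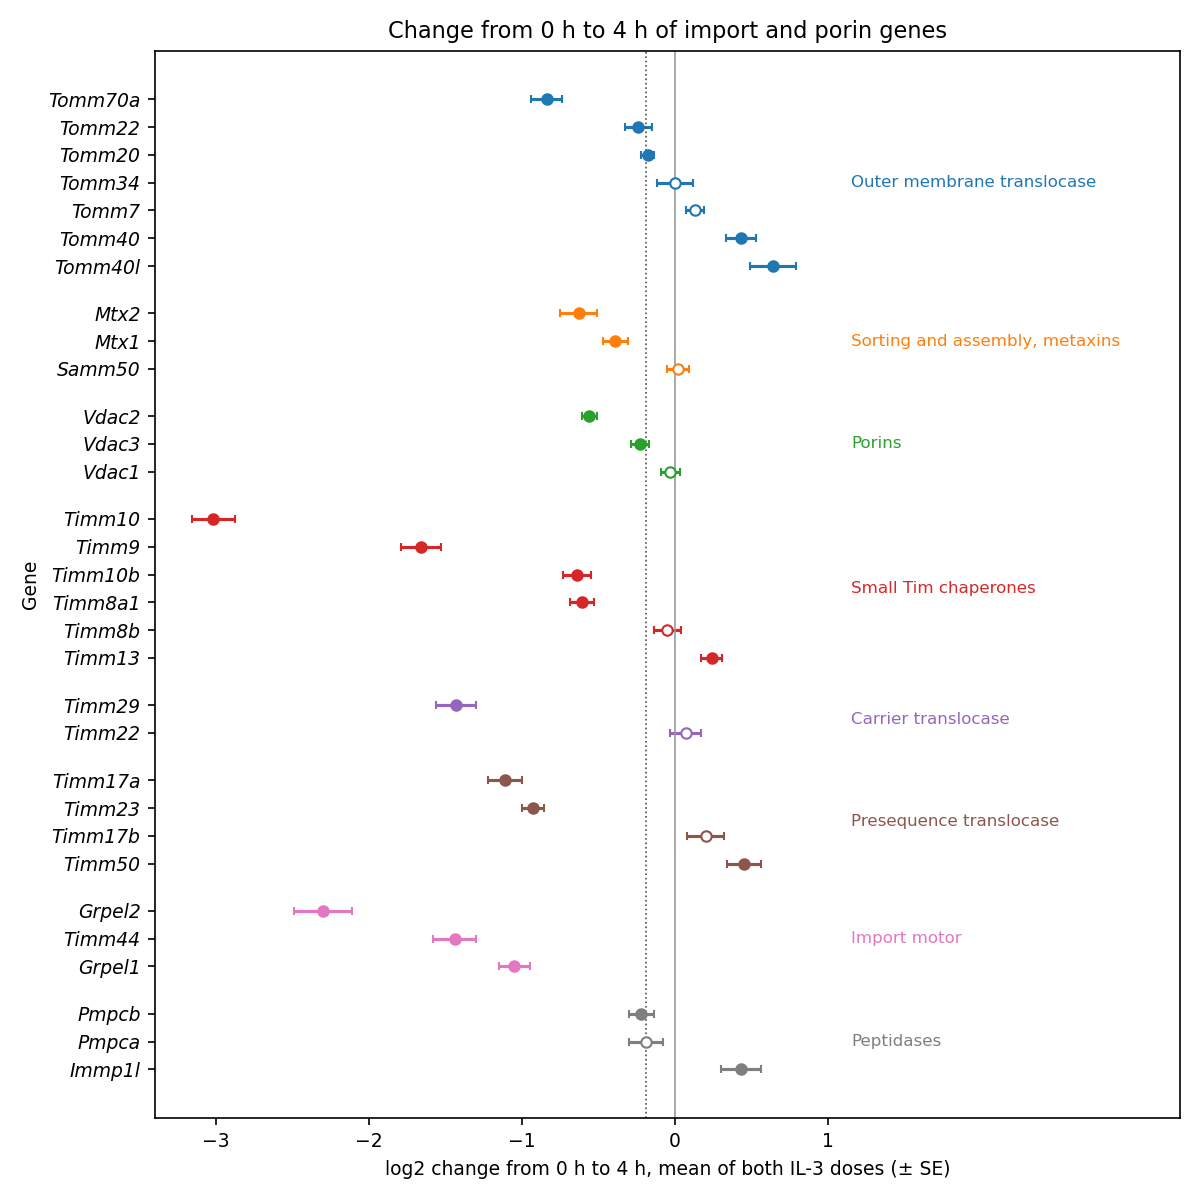
Points are log2 changes from 0 h to 4 h averaged over both IL-3 doses, with bars of 1 SE, for 31 members grouped by role; filled points passed the limma threshold and the dotted line marks the median of all genes tested, -0.19. All 3 import motor genes lie at -1.05 or lower, whereas the outer membrane translocase spans -0.84 to 0.64.

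The small Tim chaperones, which carry hydrophobic precursors across the intermembrane space, held the widest range. Timm10 gave intensities of 1053 (experiment 1) and 592 (experiment 2) at 0 h. With high IL-3 these became 311 and 161 by 2 h and 128 and 56.1 by 4 h. With low IL-3 they became 378 and 153 by 2 h and 111 and 58.2 by 4 h. Every 2 h array lay below both 0 h arrays and every 4 h array below every 2 h array. The log2 change to 4 h was -3.02 (SE 0.14, limma adjusted p = 1.1e-10), the 85th lowest of 6792 genes. Its half-life was 1.21 h ± 0.087 in high and 1.20 h ± 0.067 in low IL-3 (SD, n = 2).

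Timm9, the partner of Timm10 in a hexameric chaperone, read 879 (experiment 1) and 850 (experiment 2) at 0 h on the intensity scale. Cultures with high IL-3 then read 564 and 349 by 2 h and 298 and 238 by 4 h, and those with low IL-3 541 and 410 by 2 h and 276 and 245 by 4 h. The 3 times did not overlap, whereas the doses overlapped at each time. The log2 change to 4 h was -1.66 (SE 0.13), with half-lives of 2.34 h ± 0.46 in high and 2.31 h ± 0.23 in low IL-3 (SD, n = 2). A further Timm9 probe set changed by only -0.32 and was not called, so the size of the fall depends on the probe set. That probe set was dim, with a mean intensity of 56.3 (10.3 to 111 over the arrays), beside 465 for the one used. Timm10b and Timm8a1 fell by 0.64 (SE 0.09) and 0.61 (SE 0.08) on the log2 scale. Timm8b was at -0.05 (SE 0.09), which did not pass the test, and Timm13 rose by 0.24 (SE 0.07), a call lost without the 0 h array of experiment 1 (0.18). Timm8a2, at intensities from 1.00 to 7.95, was the only member under the filter and was not tested.

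All 3 import motor genes among the members were called lower at 4 h, beside 45.0% of all genes. Grpel1 and Grpel2 are nucleotide exchange factors of mitochondrial Hsp70, and Timm44 tethers Hsp70 to the channel. Grpel2 started from intensities of 390 (experiment 1) and 240 (experiment 2). After 2 h it stood at 102 and 63.8 with high IL-3 and at 83.6 and 40.5 with low IL-3, and after 4 h at 60.5 and 49.4 with high IL-3 and at 42.5 and 47.4 with low IL-3. Arrays at 2 h and 4 h overlapped and lay far below both 0 h arrays. Most of its fall came by 2 h: the log2 change was -1.91 (SE 0.19, limma adjusted p = 8.7e-07) from 0 h to 2 h and -0.38 (SE 0.15, limma adjusted p = 0.065) from 2 h to 4 h. Grpel2 was the only member tested with arrays under an intensity of 50, and log2(intensity + 16) understates the change of so dim a probe set.

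Timm44 and Grpel1 fell in both intervals. The log2 change of Timm44 to 4 h was -1.44 (SE 0.14), and its other probe sets gave -1.39 and -0.57. Half-lives of Timm44 were 2.54 h ± 0.013 in high and 3.04 h ± 0.25 in low IL-3 (SD, n = 2). The probe set at -1.39 gave 2.65 h ± 0.16 and 3.11 h ± 0.13, but that at -0.57 gave 7.81 h ± 3.80 and 6.16 h ± 1.12. Grpel1 fell by 1.05 (SE 0.10) on the log2 scale, with half-lives of 4.18 h ± 0.48 and 3.84 h ± 0.32. In the carrier translocase, Timm29, a stabilizing subunit, fell by 1.43 (SE 0.13), whereas the channel-forming subunit Timm22 was at 0.07 (SE 0.10) and did not pass the test.

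**Figure D2:**
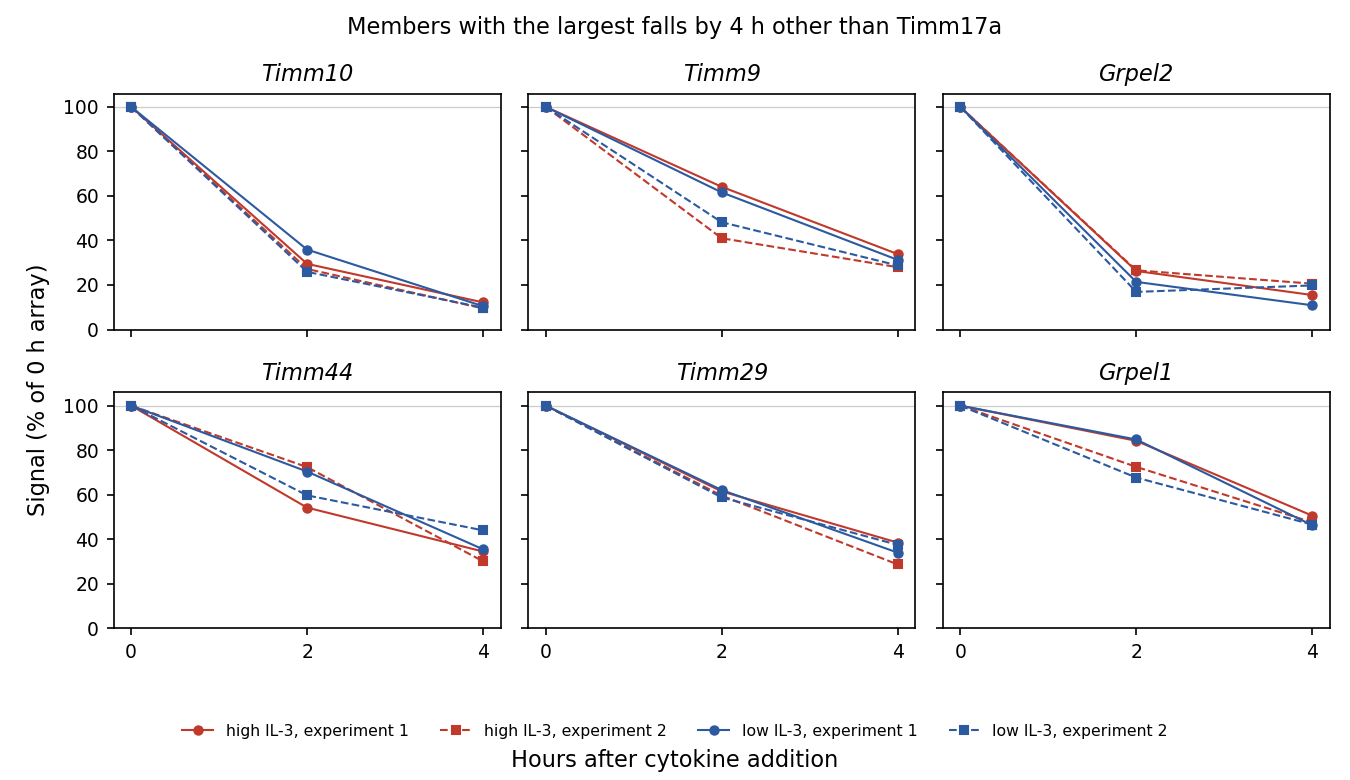
Signal as a percentage of the same experiment's 0 h array against hours after cytokine addition, for the 6 members other than Timm17a with the largest log2 falls; colours mark IL-3 dose, and line styles and symbols mark the experiment. Timm10 ended at 10.8% ± 1.91 in high and 10.2% ± 0.47 in low IL-3 (SD, n = 2), and high and low curves run close together for Timm10, Timm29 and Grpel1.

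Subunits of the presequence translocase went separate ways. Timm17a and Timm17b are alternative channel subunits that pair with Timm23, and Timm50 is the receptor that hands presequences to them. Timm17a gave intensities of 1344 (experiment 1) and 1424 (experiment 2) at 0 h. With high IL-3 these became 1129 and 1156 by 2 h and 870 and 921 by 4 h. With low IL-3 they became 823 and 829 by 2 h and 380 and 527 by 4 h. No group overlapped another, although the replicates at 4 h in low IL-3 stood well apart and the low IL-3 arrays by 2 h were already below the high IL-3 arrays of 4 h. Averaged over doses, the log2 change was -0.50 (SE 0.11) to 2 h and -1.11 (SE 0.11, limma adjusted p = 2.1e-07) to 4 h.

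Timm17b read 938 (experiment 1) and 806 (experiment 2) at 0 h on the intensity scale. Cultures with high IL-3 then read 733 and 979 by 2 h and 937 and 1009 by 4 h, and those with low IL-3 966 and 949 by 2 h and 910 and 1161 by 4 h. The groups overlapped throughout, and the change to 4 h of 0.20 (SE 0.12, limma adjusted p = 0.17) did not pass the test. This log2 change was 0.63 relative to the 75th percentile and -0.02 in experiment 1 alone.

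Timm23 started from intensities of 3466 (experiment 1) and 3365 (experiment 2). After 2 h it stood at 3209 and 2793 with high IL-3 and at 3203 and 2843 with low IL-3, and after 4 h at 1853 and 1875 with high IL-3 and at 1630 and 1801 with low IL-3. All 4 h arrays lay well below all others, while the 2 h arrays were only a little below those at 0 h. Its fall passed the test in the later interval alone: the log2 change was -0.18 (SE 0.07, limma adjusted p = 0.076) from 0 h to 2 h and -0.75 (SE 0.06, limma adjusted p = 3.2e-07) from 2 h to 4 h. Half-lives over the whole chase were 5.16 h ± 0.071 in high and 4.62 h ± 0.37 in low IL-3 (SD, n = 2), although the 2 intervals did not decline at 1 rate.

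Timm50 gave intensities of 320 (experiment 1) and 530 (experiment 2) at 0 h. With high IL-3 these became 462 and 675 by 2 h and 494 and 692 by 4 h. With low IL-3 they became 400 and 646 by 2 h and 415 and 736 by 4 h. The experiments differed in level, but within each every later array was above its 0 h array. The log2 change to 4 h was 0.45 (SE 0.11, limma adjusted p = 0.0028). Since the arrays were normalized to each other, a rise is relative to the other signals of the array.

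Among the porins, Vdac2 and Vdac3 fell and Vdac1 did not pass the test. Vdac2 read 4440 (experiment 1) and 4017 (experiment 2) at 0 h on the intensity scale. Cultures with high IL-3 then read 4119 and 3663 by 2 h and 3439 and 2988 by 4 h, and those with low IL-3 3858 and 3337 by 2 h and 2618 and 2488 by 4 h. All 4 h arrays lay below both 0 h arrays, and those in low IL-3 were the lowest of all. The log2 change to 4 h was -0.56 (SE 0.05, limma adjusted p = 2.2e-07), and -0.12 relative to the 75th percentile, which did not pass the test (adjusted p = 0.12).

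Vdac1 started from intensities of 2854 (experiment 1) and 2711 (experiment 2). After 2 h it stood at 2630 and 2607 with high IL-3 and at 2710 and 2785 with low IL-3, and after 4 h at 2680 and 2712 with high IL-3 and at 2790 and 2745 with low IL-3. The 4 h arrays overlapped those at 0 h, whereas the high IL-3 arrays of 2 h lay below all others. High IL-3 was above low IL-3 in 0 of 4 pairs of arrays, but in 1 or 2 of 4 on its other probe sets that passed the filter. The log2 change to 4 h was -0.03 (SE 0.06, limma adjusted p = 0.73). Under 75th percentile scaling it became 0.41, a call in the other direction. Its 4 probe sets that passed the filter lay between -0.03 and 0.04.

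Vdac3 gave intensities of 4114 (experiment 1) and 3561 (experiment 2) at 0 h. With high IL-3 these became 3956 and 3734 by 2 h and 3445 and 3461 by 4 h. With low IL-3 they became 3897 and 3526 by 2 h and 3002 and 3179 by 4 h. The 2 h and 0 h arrays overlapped, and the 4 h arrays lay below both. The log2 change to 4 h was -0.23 (SE 0.06, limma adjusted p = 0.0055), close to the median of all genes. It turned to 0.21 under 75th percentile scaling and to 0.03 with median centring, and without the 0 h array of experiment 1 it was -0.14 (adjusted p = 0.16).

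**Figure D3:**
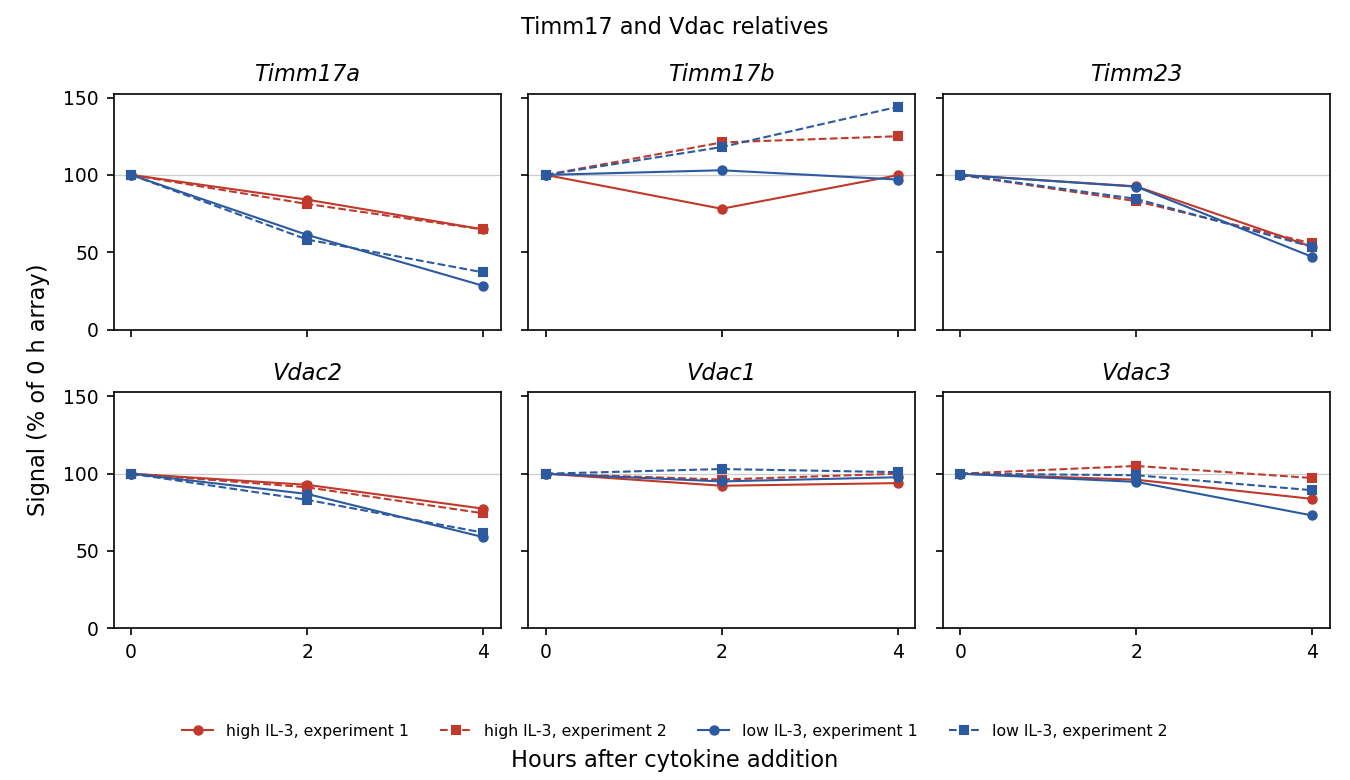
Signal as a percentage of the same experiment's 0 h array against hours after cytokine addition, for Timm17a, Vdac2 and their relatives; colours mark IL-3 dose, and line styles and symbols mark the experiment. At 4 h Timm17a stood at 64.7% ± 0.061 in high and 32.7% ± 6.17 in low IL-3 (SD, n = 2), whereas Timm23 stood at 54.6% ± 1.60 and 50.3% ± 4.59.

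In the outer membrane translocase, 3 of 7 members fell (42.9%, near the 45.0% of all genes) and 2 rose. Tomm70a, the receptor for carrier precursors, fell by 0.84 (SE 0.10) on the log2 scale, and its other probe sets gave -0.87, -1.45 and -0.02. The last of these was dim, with a mean intensity of 85.2 beside 1330 for the one used, and was not called. The presequence receptor Tomm20 and the central receptor Tomm22 fell by 0.18 (SE 0.04) and 0.24 (SE 0.09), and both turned positive under 75th percentile scaling (0.25 and 0.19) and median centring (0.08 and 0.02). The other Tomm22 probe set was at 0.00 (SE 0.12) and was not called. The mean of the Tomm22 probe sets gave -0.12, which did not pass the test (limma adjusted p = 0.27). Tomm34, a cytosolic cochaperone, was at 0.00 (SE 0.12) and Tomm7, which modulates assembly of the complex, at 0.13 (SE 0.06), and neither passed the test. The other Tomm7 probe sets that passed the filter rose by 0.20 and 0.26 and were called (limma adjusted p = 0.035 and 0.0099).

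The pore-forming subunit Tomm40 rose by 0.43 (SE 0.10), and its paralogue Tomm40l showed the largest rise of the 31 members. Tomm40l read 101 (experiment 1) and 187 (experiment 2) at 0 h on the intensity scale. Cultures with high IL-3 then read 181 and 207 by 2 h and 161 and 297 by 4 h, and those with low IL-3 111 and 196 by 2 h and 180 and 295 by 4 h. The experiments differed in level and the groups overlapped across them, but within each experiment both 4 h arrays were above the 0 h array. The log2 change was 0.64 (SE 0.15, limma adjusted p = 0.0018).

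In the sorting and assembly machinery, the metaxins Mtx1 and Mtx2, which face the cytosol, fell by 0.39 (SE 0.08) and 0.63 (SE 0.12), but under 75th percentile scaling the change of Mtx1 was 0.04 and that of Mtx2 -0.20, which did not pass the test (limma adjusted p = 0.085). Samm50, the barrel that inserts other barrels, was at 0.02 (SE 0.07) and did not pass the test. Of the peptidases, Pmpcb, the catalytic subunit of the matrix processing peptidase, fell by 0.22 (SE 0.08), a sign that turned under 75th percentile scaling (0.21) and median centring (0.04), and Pmpca, its other subunit, was at -0.19 (SE 0.11), which did not pass the test.

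Immp1l, an inner-membrane peptidase, started from intensities of 946 (experiment 1) and 461 (experiment 2). After 2 h it stood at 827 and 621 with high IL-3 and at 935 and 580 with low IL-3, and after 4 h at 1010 and 757 with high IL-3 and at 992 and 856 with low IL-3. The 4 h arrays overlapped those at 0 h, and the rise came mostly from experiment 2. The log2 change of 0.43 (SE 0.13, limma adjusted p = 0.012) became 0.14 (adjusted p = 0.46) without the 0 h array of experiment 2 and 0.33 (adjusted p = 0.07) without its 4 h array in low IL-3.

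The intervals were also tested apart. From 0 h to 2 h, 10 members were lower and 2, Timm50 and Tomm40, higher, beside 30.9% and 3.34% of all genes. From 2 h to 4 h, 15 were lower and 2, Tomm40l and Immp1l, higher, beside 30.9% and 5.46%. Member medians were -0.15 and -0.10 on the log2 scale, beside -0.11 and -0.07 for all genes. Of the members lower by 4 h, 10 were called lower in every setting in which they were tested, scalings and omitted arrays included: Timm10, Grpel2, Timm9, Timm44, Timm29, Timm17a, Grpel1, Timm23, Timm10b and Timm8a1. How many of all genes were lower in every setting was not counted, so this is not set against a background. None of the 5 members that rose was called in every setting.

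By the values that chose the family, Timm17a was higher in high IL-3 by 0.72 (SE 0.09) and Vdac2 by 0.22 (SE 0.04), as log2 differences averaged over 2 h and 4 h, each in 4 of 4 pairs of arrays. Over all genes, 0.869% passed the limma threshold in this direction and 0.0147% in the other. Since the choice of the family used this contrast, no calls are given for members. Among the other members, Grpel2 differed by 0.30 (SE 0.15) and Vdac3 by 0.11 (SE 0.05), also higher in high IL-3 in 4 of 4 pairs. Timm10b (-0.08, SE 0.07), Tomm34 (-0.05, SE 0.10) and Vdac1 (-0.05, SE 0.05) were lower in high IL-3 in 4 of 4 pairs on the probe sets used. On the other probe sets that passed the filter, high IL-3 was above low IL-3 in 1 or 2 of 4 pairs for Vdac1. For Timm10b it was above in 1 and 0 of 4. The 4 pairs come from only 2 experiments, and the share of all genes with 4 agreeing pairs was not counted. The 29 other members lay between -0.16 for Timm44 and 0.30 for Grpel2, with a median of -0.01.

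Expressed as half-lives, Timm17a stood at 6.53 h ± 0.16 in high and 2.52 h ± 0.31 in low IL-3 (SD, n = 2). Vdac2 stood at 11.0 h ± 1.19 in high and 5.92 h ± 0.19 in low IL-3. For both, the experiments differed by less than the doses did. Since the dose difference of these genes chose the family, nothing is read from this. All half-lives were computed on the deposited scaling alone. Under 75th percentile scaling the log2 change of Vdac2 to 4 h was -0.12, beside -0.56 on the deposited scaling. The relatives were closer between doses: Timm17b differed by -0.13 (SE 0.10), Timm23 by 0.05 (SE 0.06) and Vdac1 by -0.05 (SE 0.05) on the log2 scale. Vdac3 differed by 0.11 (SE 0.05), in the same direction as Vdac2.

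Whether the dose difference widened between 2 h and 4 h was tested separately. No member passed the threshold in either direction, nor did any gene (0.0% of 6792). At an unadjusted limma p under 0.05 there were 3 members and 364 of all genes, and 1 member without Timm17a and Vdac2, whose dose difference had chosen the family. The difference of Timm17a was 0.46 at 2 h and 0.97 at 4 h on the log2 scale, a change of 0.51 (SE 0.17). For Vdac2 the change was 0.21 (SE 0.09) and for Tomm40 -0.40 (SE 0.17), and none of these passed the test (limma adjusted p = 0.86 for each).

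**Figure D4:**
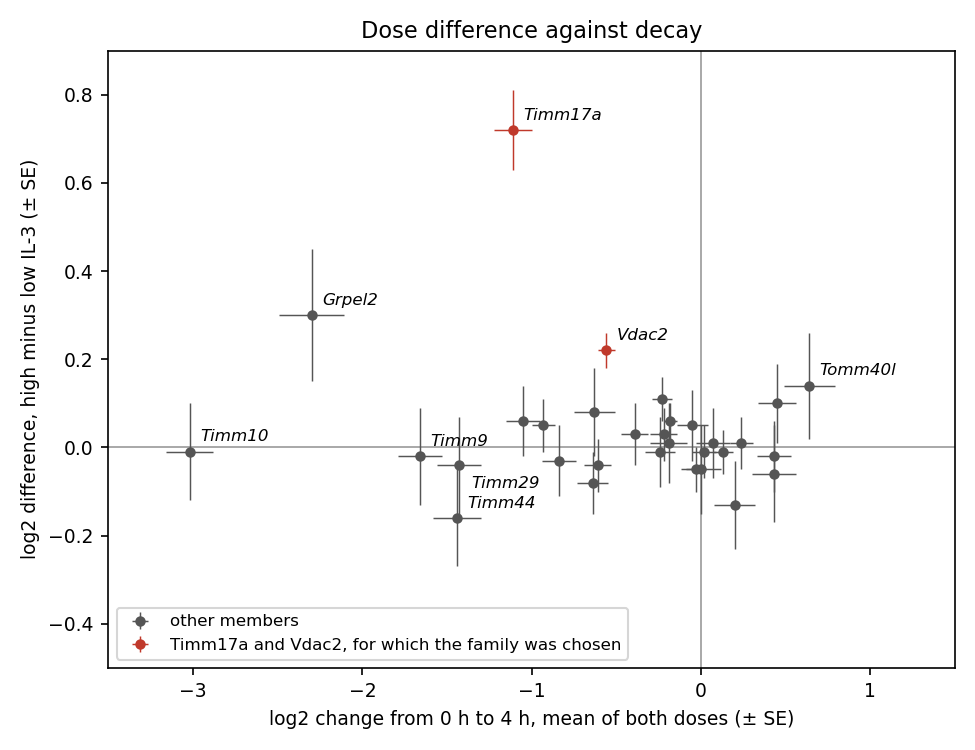
The log2 difference between high and low IL-3 (mean of 2 h and 4 h) against the log2 change from 0 h to 4 h averaged over doses, with bars of 1 SE, for 31 members. Timm17a (0.72) and Vdac2 (0.22), in red, were the members for which the family was chosen; Timm10, with the largest fall (-3.02), lies at -0.01.

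Genes that work beside the members were counted from lists written from general knowledge. Of 22 import partners 18 were tested, with 7 lower and 5 higher at 4 h and a median log2 change of -0.09, beside 45.0% lower, 14.5% higher and a median of -0.19 over all genes. Chchd4, the oxidoreductase that folds small Tim proteins on arrival, was at -2.30 (SE 0.14), and Gfer, which reoxidizes it, at -0.89 (SE 0.13). Maip1, a matrix protein that protects a calcium channel subunit during import, was at -2.32 (SE 0.19), and the cytosolic chaperone Hspa8 at -0.30 (SE 0.05), and all 4 were called. Hspa9, the mitochondrial Hsp70 at the centre of the motor, was at 0.00 (SE 0.08), which did not pass the test. On the same list Pam16 fell (-0.43, SE 0.08) and Dnajc15 rose (0.30, SE 0.07), and both were called.

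Of 21 tested genes of inner-membrane organization and protein quality control, 7 (33.3%) were lower and 4 (19.0%) higher, with a median of 0.12, beside the same 45.0% and 14.5% of all genes. The matrix chaperone Clpx (-2.28, SE 0.15), the protease subunit Afg3l2 (-1.53, SE 0.11) and the protease Htra2 (-0.58, SE 0.12) fell, and Chchd6, a cristae organizer, rose (0.78, SE 0.15). Of 11 porin partners, 7 (63.6%) were lower and 2 (18.2%) higher, with a median of -0.19, that of all genes. The 4 with the smallest p all fell: the hexokinases Hk2 (-2.43, SE 0.13) and Hk1 (-0.33, SE 0.07), the matrix cyclophilin Ppif (-0.85, SE 0.10) and the phosphate carrier Slc25a3 (-0.19, SE 0.04). No gene of the 3 lists passed the threshold for dose. At an unadjusted limma p under 0.05 there were 3 import partners, 0 quality control genes and 2 porin partners, beside 584 of all 6792 genes.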

How the data were processed

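RNA of 32Dcl3 cells was hybridised to 10 Affymetrix mouse 430A 2.0 arrays. The deposited table holds linear intensities of 22690 probe sets, which the authors normalized jointly in dChip with default settings (dChip version not given in the sources used here). Gene names came from the platform annotation, in which 20393 probe sets carry 1 gene, 691 carry several and 1606 are unnamed; 20364 were matched by gene ID to RefSeq (GRCm38.p6). Of probe sets that name several genes, 3 include Tomm5 or Tomm6 and were left out. Members and lists were chosen with earlier results of these data known.

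From the deposited intensities, log2(intensity + 16) was computed here for 11856 probe sets with a mean of at least 50. These log2 values were fitted with limma 3.58.1 in R 4.3.3 (5 groups, experiment as block, eBayes with trend), with Benjamini-Hochberg adjustment over all probe sets at 0.05. The block was set by the design: each experiment split 1 culture over its 5 arrays, and same-experiment arrays shared deviations from the group means (correlations 0.762 to 0.887). Background shares count 1 probe set per gene, 6792 genes. The p-values rest on 2 experiments, and the number of arrays limits the precision. For half-lives, ln 2 was divided by the decline of the ln ratio to the 0 h intensity, fitted through 0 h in each experiment; those beyond 12 h are not given. The fit was tested on simulated data.

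Values on all arrays were given for Timm17a, Vdac2, Timm17b, Timm23, Vdac1, Vdac3 and the 3 members with the most negative and the 3 with the least negative change to 4 h, and of each partner list the 4 genes with the smallest p. Hspa9, Pam16 and Dnajc15 of the import partners were named outside this rule. Alternatives were pseudocounts of 1 and 64, no filter or one at 200, 75th percentile, Gapdh, quantile and median scaling, no block, no variance trend, the mean of a gene's probe sets, and each array or experiment left out. Figures and summaries used Python 3.11.15, numpy 2.4.6, pandas 2.3.3 and matplotlib 3.10.9.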

Additional observations from a re-analysis of the deposited data

How the results depend on the processing

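Scaling decided the sign of members near the median of all genes. Calls over all genes were not counted under any alternative setting. Under 75th percentile scaling, the log2 change to 4 h became positive for Vdac3 (0.21), Mtx1 (0.04), Tomm20 (0.25), Pmpca (0.24), Tomm22 (0.19), Timm8b (0.38), Pmpcb (0.21), Vdac1 (0.41) and Tomm34 (0.42). Counts became 6 lower and 14 higher at 2 h, 11 and 17 at 4 h, and 10 higher from 2 h to 4 h. Quantile normalization gave 8, 9 and 5 members higher over these intervals and positive signs for Pmpca (0.15), Tomm22 (0.06), Timm8b (0.16), Vdac1 (0.08) and Tomm34 (0.43). Median centring, chosen after seeing the data, gave 6, 12 and 9 higher. It gave positive signs for Vdac3 (0.03), Tomm20 (0.08), Pmpca (0.07), Tomm22 (0.02), Timm8b (0.21), Pmpcb (0.04), Vdac1 (0.24) and Tomm34 (0.26). Gapdh scaling turned Vdac1 (0.01) and Tomm34 (0.03), and the mean of probe sets turned Vdac1 (0.01).

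Without the replicate block for the divided cultures, 1 member was lower and 0 higher at 2 h. At 4 h 12 were lower and 0 higher, and from 2 h to 4 h 4 were lower and 0 higher. Without a variance trend, 1 was higher in each interval apart. Without a filter, 0 were higher from 2 h to 4 h, and a filter at 200 gave 1 higher from 2 h to 4 h.

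Leaving out each array gave 6 to 11 members lower and 0 to 3 higher at 2 h and 14 to 19 and 4 to 6 at 4 h. From 2 h to 4 h it gave 13 to 15 lower and 0 to 2 higher. The 6 came without the 2 h array in low IL-3 of experiment 2. From 2 h to 4 h, the higher count was 0 or 1 without any 1 of the 2 h and 4 h arrays. To 2 h it was 0 or 1 without either 0 h array, the 2 h arrays of experiment 1, the 2 h low or the 4 h high array of experiment 2. Without the 0 h array of experiment 1, Vdac3, Tomm20, Tomm22, Pmpcb and Timm13 lost their 4 h calls and Tomm7 (0.21) and Timm17b (0.41) gained one; without that of experiment 2, Immp1l lost its call and Pmpca (-0.36) gained one. Tomm22 or Pmpcb also lost calls without the 2 h low, 4 h high and 4 h low arrays of experiment 1 and the 2 h low and 4 h high arrays of experiment 2. Signs turned for Timm8b (-0.20 to 0.10), Vdac1 (-0.07 to 0.01), Tomm34 (-0.12 to 0.12), Timm17b (-0.01 to 0.41) and Samm50 (-0.12 to 0.15). Experiment 1 alone turned Timm17b (-0.02) and Samm50 (-0.14), and experiment 2 alone Pmpca (0.00), Timm8b (0.12), Vdac1 (0.01) and Tomm34 (0.18), neither with a test. The causes were not tested. Only 2 arrays per group bound the size of change that could be called, and signals below 50 limit only Grpel2 among members tested.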
